A study of Saccharomyces cerevisiae with 47 samples.

Results

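Most sites in the authors' list for the yeast DNA-binding factor Reb1 lay outside protein-coding genes, and the sites described here are those inside them. They were the distinct sites of that list whose centre fell between the start codon and the stop codon of a protein-coding gene of the R64 yeast genome build. Of 942 distinct sites, 224 met this rule (23.8%, exact 95% binomial interval 21.1 to 26.6), and they filled 573 of the 2808 rows of the list. Protein-coding sequence covered 73.0% of the annotated span, a far larger share. The 224 sites lay in 215 of 6002 protein-coding genes, which is 3.58% of them. In 206 of these genes there was 1 site and in 9 there were 2.

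Reb1 is an essential general regulatory factor of budding yeast with a Myb-like DNA-binding domain. It is best known for binding in promoters, where it helps to keep a stretch of DNA free of nucleosomes, and it also takes part in stopping transcription by RNA polymerase I and II. A site inside a coding sequence can at the same time lie ahead of the next gene, since yeast genes are packed closely. For this reason each site was placed both in its host gene and against the start codons of other genes. A neighbouring start codon means here one of another gene, downstream of the site in that gene's reading direction and at most 500 bp from the site's centre.

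The study bound Strep-tagged Reb1 to chromatin rebuilt in vitro from a plasmid library of yeast DNA and recombinant histone octamers, fixed it with 0.05% formaldehyde and recovered it on Strep-Tactin beads after digestion with micrococcal nuclease. The reactions of the Reb1 series held 50 nM Reb1 with INO80, ISW2 or Chd1 at 24 nM, with RSC at 12 nM, or with no remodeler, and control reactions held neither Reb1 nor a remodeler. These 12 pulldowns and their inputs came in at most 2 replicates per group, out of 47 samples that include a parallel Abf1 series. All groups shared chromatin put together from purified parts by salt gradient dialysis, so none of them held living cells. The list carried no sample, and the labels do not say which pulldowns entered it, so depth, replicate spread and the effect of a remodeler are not analysed here. Sites are not replicates, so every interval and p-value below covers counting over the sites of 1 list and says nothing of the spread between experiments. No genome sequence was used, so the letters at the sites are not printed.

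Only the DNA of chromosomes V to IX is named in the design text, and 43 of the 224 sites were there (19.2%, 14.3 to 25.0). Those chromosomes hold 23.8% of coding base pairs, and the difference did not pass the exact binomial test (two-sided, adjusted p = 0.163). Among the other Reb1 sites 194 of 718 (27.0%) were on them, a difference that passed before adjustment only (Fisher's exact test, two-sided, p = 0.0216, adjusted p = 0.0587). The remaining 181 sites inside genes lay on the other 11 chromosomes. Whether the DNA of those chromosomes was in the chromatin assayed is not stated, so what a listed site there stands for is unknown, and the counts below include these sites unless chromosomes V to IX are named. By chromosome the density ran from 7.05 sites per Mb of coding sequence on chromosome I (1 site) and 7.34 on chromosome VIII (3 sites) to 35.5 on chromosome XV (28 sites) and 35.6 on chromosome V (14 sites).

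Short genes held more of the sites than their length would give. Counted once per site, host genes had a median length of 1593 bp (quartiles 836 to 2624, range 162 to 11235). All protein-coding genes, counted once per gene, had a median of 1200 bp. These medians are not like measures, since a longer gene offers more places for a site. Genes shorter than 600 bp held 38 of the 224 sites (17.0%, 12.3 to 22.5) but 4.93% of coding base pairs (exact binomial test, two-sided, adjusted p = 2.77e-10). The excess was present without neighbouring start codons as well. Of the 186 sites with none within 500 bp, 19 lay in such short genes (10.2%), against 3.66% of the corresponding base pairs (exact binomial test, adjusted p = 0.000198). These short hosts included PRE1, a subunit of the proteasome core, SML1, an inhibitor of ribonucleotide reductase, and ANB1, a copy of the translation factor eIF5A. SML1 and ANB1 are examples that were not taken by any rank or gene group. Genes known only by a systematic name, which have no assigned symbol in the gene table, held 27 sites (12.1%) against 8.56% of coding base pairs, and this did not pass (exact binomial test, adjusted p = 0.110).

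Sites inside genes stood ahead of another gene more often than coding base pairs do. A neighbouring start codon was within 500 bp of 38 of the 224 sites (17.0%, 12.3 to 22.5), against 7.23% of coding base pairs (exact binomial test, two-sided, adjusted p = 4.67e-06). Without hosts shorter than 600 bp the share was 19 of 186 (10.2%), against 6.0% of base pairs, and no longer passed (exact binomial test, adjusted p = 0.0742). The 38 distances ran from 122.5 to 499.5 bp with a median of 369 bp. None of the 224 sites had such a start codon within 100 bp, a distance for which no base pair background was computed. Within 300 bp 16 had one (7.14%), against 1.62% of coding base pairs. Within 1000 bp 86 did (38.4%), against 27.9% of coding base pairs. At 2 of the 38 sites the start codons of 2 other genes were within 500 bp.

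Sites inside genes leaned towards the distal end of their hosts. Each host was cut into 3 parts of equal length, proximal, middle and distal from the start codon. Of all 224 sites, 61 lay in the proximal part (27.2%), 68 in the middle part (30.4%) and 95 in the distal part (42.4%, 35.9 to 49.2), and the distal share was above an even split (exact binomial test, adjusted p = 0.0107). Sites with a neighbouring start codon were in the distal part in 28 of 38 cases (73.7%, 56.9 to 86.6). Base pairs that lie so close to a neighbouring start codon are themselves in the distal part in 49.5% of cases, and the sites were above this value too (exact binomial test, adjusted p = 0.00809). Sites without one were spread along the gene, with 56, 63 and 67 of 186 in the proximal, middle and distal part, and 36.0% in the distal one (29.1 to 43.4, exact binomial test, adjusted p = 0.495). The distal excess of all sites did not pass without the short hosts (75 of 186, 40.3%, exact binomial test, adjusted p = 0.112). On chromosomes V to IX alone it turned round, with 12 of 43 sites in the distal part (27.9%, exact binomial test, adjusted p = 0.653).

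**Figure D1:**
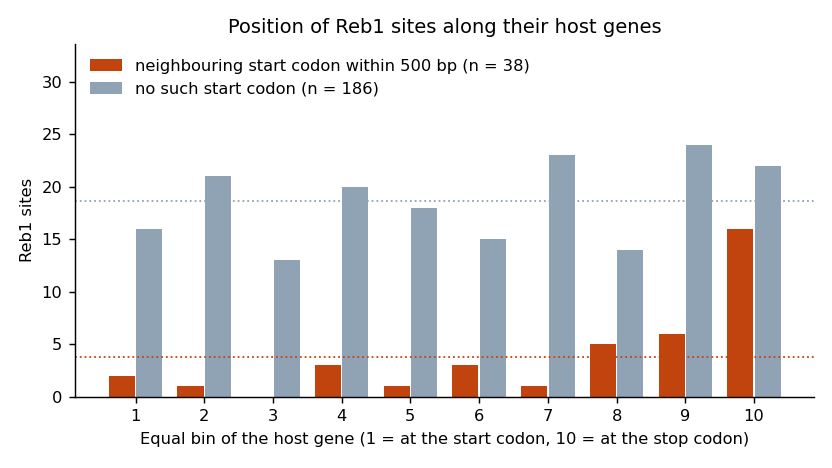
Number of Reb1 sites in each of 10 equal bins of the host gene, from the start codon (1) to the stop codon (10), for 38 sites with a neighbouring start codon within 500 bp (dark bars) and 186 sites without one (light bars). Dotted lines mark an even spread of each class. In the last bin there are 16 of the 38 sites with a neighbour and 22 of the 186 without one.

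The gene downstream usually ran in the same direction as the host. The neighbouring gene was on the host's strand at 29 of the 38 sites (76.3%, 59.8 to 88.6) and on the opposite strand at 9. Of coding base pairs within 500 bp of a neighbouring start codon, 54.7% lie ahead of a gene on the host's strand (exact binomial test, adjusted p = 0.0163). Hosts known only by a systematic name made up 14 of the 38 sites with a neighbour (36.8%) and 13 of the 186 without (6.99%). The odds ratio was 7.65 (Fisher's exact test, two-sided, 95% interval 2.95 to 20.1, adjusted p = 6.45e-05). Such genes supply 11.6% of the coding base pairs near a neighbouring start codon, so the 36.8% was also above that background (exact binomial test, adjusted p = 0.000193). Among hosts of at least 600 bp the same comparison gave 2 of 19 against 7 of 167 and did not pass (Fisher's exact test, adjusted p = 0.365). Counted once per site, host genes with a neighbour had a median length of 630 bp, against 1794 bp without.

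The nearest case was a site in IRC16, 13.5 bp from the end of that gene at chrXVI:647178-647187, whose centre was 122.5 bp ahead of the start codon of TIP41, a regulator in TOR signalling. It had a score of 11.9310 and was listed in 2 rows. The next was in YGR025W at chrVII:532730-532739, 138.5 bp ahead of THG1, the enzyme that adds a guanosine to histidine tRNA. A site in UBA3, which encodes part of the enzyme that activates the ubiquitin-like Rub1, was 147.5 bp ahead of ISA2, an iron-sulfur cluster assembly gene, and 40.5 bp from the end of UBA3. ISA2 held a Reb1 site of its own in its coding sequence, 70.2% along the gene. A site in YER145C-A at chrV:462405-462414 was 175.5 bp ahead of LSM5, which encodes a subunit of the Lsm RNA-binding ring, and a site in YOR072W-B was 186.5 bp ahead of SGO1, the guardian of centromere cohesion. In 4 of these 5 hosts the site lay in the distal part, and YGR025W was the exception at 31.5% along the gene.

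Several other pairs joined genes of well-known roles. At chrXV:722460-722469 a site in HIS3, a histidine biosynthesis gene, was 446.5 bp ahead of DED1, an RNA helicase of translation initiation, with a score of 11.9483 and 4 rows. A site in YML122C was 495.5 bp ahead of PHO84, the high-affinity phosphate transporter. A site in UBP2, a deubiquitinating enzyme, was 337.5 bp ahead of LEO1, a subunit of the Paf1 complex of transcription elongation. A site in SPC25, a kinetochore gene, was 440.5 bp ahead of AFG3, a mitochondrial protease. A site in YLR379W-A was 370.5 bp ahead of SEC61, the channel of the endoplasmic reticulum translocon. These 5 were singled out after their values were seen.

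**Figure D2:**
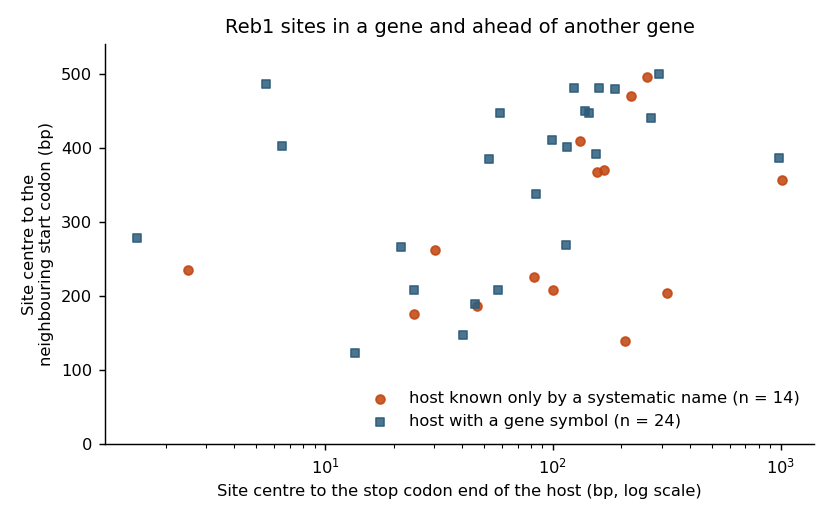
Each point is 1 of the 38 Reb1 sites with a neighbouring start codon; the x axis is the distance in bp to the end of the host gene (log scale) and the y axis the distance in bp to that start codon. Circles are 14 sites in hosts known only by a systematic name and squares 24 sites in hosts with a symbol; all distances to the start codon lie between 122.5 and 499.5 bp.

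At the ends of genes, 32 sites were within 100 bp of the host's stop codon end and 16 within 100 bp of its start. No base pair background was computed for these counts and they were not tested. They also overlap with the sites that have a neighbouring start codon, whose median distance to the host's stop codon end was 107.5 bp. The site nearest the end was in FMT1, the mitochondrial methionyl-tRNA formyltransferase, at chrII:203256-203265. Counted to the position just past the gene's last base, its centre was 1.5 bp from the end. The centre was 277.5 bp ahead of SCT1, a glycerol phosphate acyltransferase, and the site was listed in 5 rows with a score of 11.3448. By the same count, sites in YFL015C, VPS62 and BMT2 had their centres 2.5, 5.5 and 6.5 bp from the end, and ADY2, an acetate transporter gene, followed at 10.5 bp. The first 4 overlapped the stop codon, and all of those 4 had a neighbouring start codon within 500 bp. None of the 224 sites overlapped the start codon of its host. The centres nearest a host's start were 10.5 bp into GNA1, a gene of chitin precursor synthesis, and into YNL184C, 11.5 bp into YGL088W, 14.5 bp into YLR162W and 21.5 bp into MET7, the folylpolyglutamate synthetase. Just outside the rule, distances were counted from the gene's nearest base instead. Sites there had their centres 1.5 bp beyond YLR358C, 6.5 bp beyond ICS3, 8.5 bp beyond POP3 and 13.5 bp beyond CMR1. They were listed in 3, 4, 5 and 5 rows.

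The sites farthest from any start codon lay in long genes. The site in TRA1, the large shared subunit of the SAGA and NuA4 acetyltransferase complexes, was 5914.5 bp from its start at chrVIII:308671-308680, was listed in 1 row and had a score of 11.6379. In BRR2, a spliceosomal RNA helicase, the more distal of the gene's sites was 3635.5 bp from the start, with 2 rows and a score of 12.6034. The other 3 were in RKR1, a ubiquitin ligase of ribosome quality control, ACC1, acetyl-CoA carboxylase, and SPA2, a polarity scaffold, between 2902.5 and 3591.5 bp from the nearest start codon of any gene. The sites in RKR1 and SPA2 were near the end of their gene, 48.5 and 351.5 bp from it, and the one in ACC1 was 66.6% along. They were listed in 3 rows in RKR1 and SPA2 and in 1 row in ACC1.

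The motif showed no strand preference past the test, but it favoured 1 reading frame where it lay on the host's strand. It was on the host's coding strand at 115 of 224 sites (51.3%, 44.6 to 58.1, exact binomial test, adjusted p = 0.800). It was on the neighbouring gene's strand at 19 of the 36 sites with a single neighbouring start codon (52.8%, 35.5 to 69.6, exact binomial test, adjusted p = 0.877). Frames were read in the 218 sites whose host's length was a whole number of codons. That length includes introns, so a host with an intron can be among them. With the motif on the host's strand, 93 of 114 sites began at the second base of a codon (81.6%, 73.2 to 88.2), 17 at the first base (14.9%) and 4 at the last base (3.51%). An even split would be 33.3% each (exact binomial test for the second base, adjusted p = 1.07e-24). Neither this test nor the comparison of strands below takes account of which codons the motif can form in each frame. Their p-values therefore do not show that frame bears on binding by Reb1. With the motif on the other strand, 27 of 104 sites began at the second base of a codon as read along the host (26.0%), 47 at the first (45.2%) and 30 at the last (28.8%). The share that began at the second base differed between strands with an odds ratio of 12.4 (Fisher's exact test, two-sided, 95% interval 6.33 to 25.4, adjusted p = 9.14e-16).

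The 4 sites on the host's strand that began at the last base of a codon were in PIM1, the mitochondrial Lon protease, SXM1, an importin, YFL015C and VPS62. In YFL015C and VPS62 the site was among those that overlap the stop codon. Of the sites on the host's strand with 2 rows or more, 71 of 85 began at the second base (83.5%), and of those at or above the median score 47 of 57 did (82.5%). Abf1 sites inside genes had frame preferences of their own, on the host's strand with 303 of 381 at the last base of a codon and on the other strand with 178 of 265 at the first. Frames of motif matches that are not in the lists were not analysed, so whether bound and unbound matches differ in frame was not tested. The frames were also used to choose how positions are counted, and no sequence was read to check the choice. The test above over hosts on both strands rests on it. Read with both ends counted from 1, hosts on the plus and the minus strand gave the same favoured base (56 of 65 and 37 of 49 sites). Read with starts counted from 0, they gave different ones, and 44 of 114 sites in all began at the second base (38.6%, exact binomial test, adjusted p = 0.321).

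**Figure D3:**
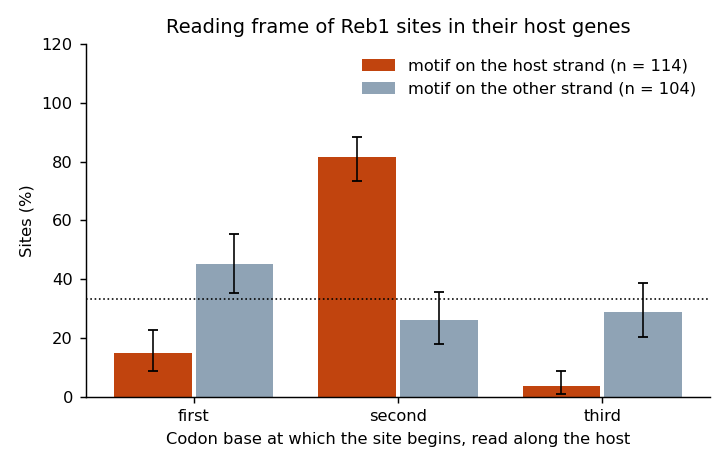
Share of Reb1 sites (percent, with exact 95% binomial intervals) by the codon base at which the site begins, read along the host gene, for 114 sites with the motif on the host's strand (dark bars) and 104 with it on the other strand (light bars). The dotted line is an even split; 81.6% of sites on the host's strand begin at the second base, against 26.0% on the other strand.

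Sites inside genes had lower scores than other Reb1 sites. The score is the authors' value, the labels leave it undefined, and it is used only to rank sites within the list. It took 27 values between 11.1379 and 14.3276, and 54% of all Reb1 sites were at or above the list's median of 12.2586. Inside genes 98 of 224 were (43.8%), against 411 of 718 other Reb1 sites (57.2%). The odds ratio was 0.581 (Fisher's exact test, two-sided, 95% interval 0.424 to 0.795, adjusted p = 0.00202). On chromosomes V to IX alone the comparison did not pass, with 18 of 43 inside genes and 107 of 194 elsewhere (Fisher's exact test, adjusted p = 0.260). The median score was 11.9483 inside genes and 12.6034 elsewhere. Sites with and without a neighbouring start codon did not differ past the test, with 19 of 38 (50.0%) and 79 of 186 (42.5%) at or above the median, an odds ratio of 1.35 and an interval of 0.632 to 2.90 (Fisher's exact test, adjusted p = 0.600). On the host's strand 58 of 115 sites reached the median (50.4%), against 40 of 109 on the other strand (36.7%), which passed before adjustment only (Fisher's exact test, p = 0.0438, adjusted p = 0.0832).

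The decline with score was not even. At the lowest score, 11.1379, 13 of 22 Reb1 sites were inside genes (59.1%, 36.4 to 79.3). At 13.7069 it was 3 of 67 (4.48%, 0.933 to 12.5), and at the top score of 14.3276 it was 3 of 39 (7.69%, 1.62 to 20.9). Between these, adjacent scores could differ widely, as at 11.9310 with 5 of 55 sites inside genes (9.09%) and at 11.9483 with 18 of 35 (51.4%). Scores of 12.1552 with 4 of 43 and 12.2586 with 21 of 45 (46.7%) were a second such pair. Strand varied between scores too, since all 9 sites inside genes with a score of 11.1897 had the motif on the strand opposite the host, and all 5 with a score of 11.7241 had it on the host's strand. These scores were picked after their values were seen, and no test was made of them.

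**Figure D4:**
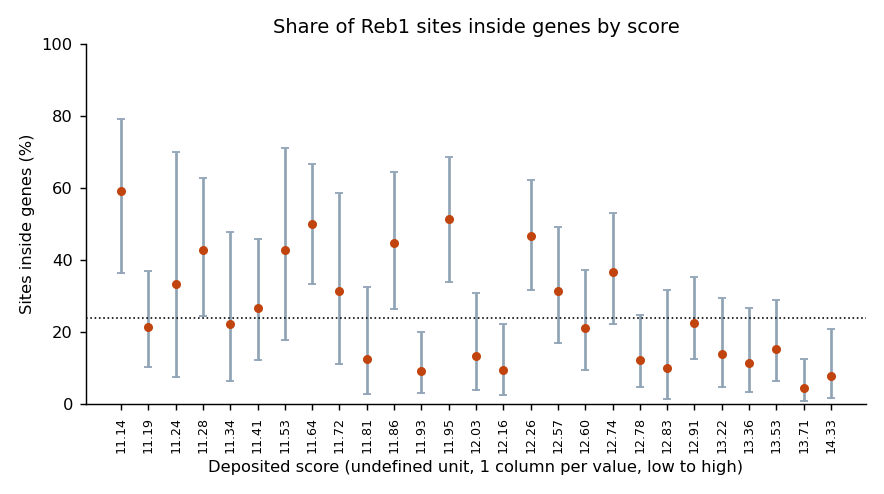
Percent of Reb1 sites that lie inside genes at each of the 27 deposited score values, from low to high (1 column per value, not to scale in score), with exact 95% binomial intervals. The dotted line is the 23.8% of all sites; shares run from 59.1% at the lowest score to 4.48% at the second highest and go up and down between.

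The 3 sites with the top score lay in HIS5, YLR379W-A and PGA1. The site in HIS5, the histidinol phosphate aminotransferase, at chrIX:143083-143092 was 159.5 bp into the gene and was listed in 5 rows. The one in YLR379W-A at chrXII:877544-877553 was also listed in 5 rows and is the site ahead of SEC61. The one in PGA1, a gene of GPI anchor synthesis, was listed in 2 rows, 188.5 bp ahead of IGO1, which encodes an inhibitor of the phosphatase PP2A. Scores of 13.5345 or more were held by 13 sites, 7 of them tied at that score. Of the 13, 6 had a neighbouring start codon within 500 bp, those in YLR379W-A, PGA1, YEL014C, YER145C-A, YFL015C and YNL184C. The other 7 were in HIS5, SUN4, BRR2, YGL088W, FRA1, YLR162W and TIF6. Among all 224 sites inside genes 38 had such a start codon, and the difference at this score was not tested.

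Sites inside genes were also repeated less often in the list. The same site could stand in 1 to 5 identical rows, and no label says what a repeat stands for. Of all Reb1 sites 81.8% were in at least 2 rows and 22.8% in 5. Inside genes 160 of 224 were in at least 2 rows (71.4%), against 611 of 718 elsewhere (85.1%), with an odds ratio of 0.438 (Fisher's exact test, two-sided, 95% interval 0.303 to 0.637, adjusted p = 6.45e-05). In 5 rows there were 28 of 224 inside genes (12.5%) and 187 of 718 elsewhere (26.0%), with an odds ratio of 0.406 (Fisher's exact test, interval 0.254 to 0.630, adjusted p = 7.50e-05). With both lists cut to sites at or above their own median score, the comparison of 2 rows or more did not pass, with 79 of 98 inside genes and 369 of 411 elsewhere (Fisher's exact test, adjusted p = 0.0585). Nor did it on chromosomes V to IX alone, with 30 of 43 and 167 of 194 (Fisher's exact test, adjusted p = 0.0724). Among the sites inside genes, 33 of 38 with a neighbouring start codon were in at least 2 rows (86.8%), against 127 of 186 without one (68.3%). This passed before adjustment only (Fisher's exact test, odds ratio 3.05, interval 1.11 to 10.5, p = 0.0288, adjusted p = 0.0683). Place along the gene showed no difference past the test, with 70 of 95 sites of the distal part (73.7%) and 90 of 129 of the rest (69.8%) in at least 2 rows (Fisher's exact test, adjusted p = 0.617).

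Besides those in HIS5 and YLR379W-A, sites in 5 rows with high scores were in SLM3, a mitochondrial tRNA thiolation enzyme, NDI1, the mitochondrial NADH dehydrogenase, and VPH1, a subunit of the vacuolar proton pump, each with a score of 13.2241. Others were in YLL066W-B, in SPC25, in WTM2, in MCM7, a subunit of the replicative helicase, in FAS1, a fatty acid synthase subunit, in CAR2, an ornithine transaminase, and in YKU80, a subunit of the Ku DNA repair complex, with scores between 12.5690 and 12.8276. Of these 12 sites, 10 had no neighbouring start codon within 500 bp, a share close to the 186 of all 224 sites inside genes. Those that had one were in YLR379W-A and SPC25.

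Proximity to Abf1 did not mark sites inside genes as a class. Abf1 is the other general regulatory factor of the series, and 9.77% of all Reb1 sites had an Abf1 site with its centre within 200 bp. Inside genes 24 of 224 did (10.7%), against 68 of 718 elsewhere (9.47%), with an odds ratio of 1.15 (Fisher's exact test, interval 0.670 to 1.91, adjusted p = 0.640). With a neighbouring start codon 7 of 38 did (18.4%), against 17 of 186 without (9.14%, Fisher's exact test, adjusted p = 0.211). The nearest Abf1 centre was 11 bp away in GSC2, a glucan synthase, 16 bp in YBR219C, 23 bp in PHO85, a cyclin-dependent kinase of phosphate signalling, 27 bp in TIP41 and 39 bp in FMT1.

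The sites inside genes that did have an Abf1 site close by stood out by their rows. Of the 24, 9 were listed in 5 rows (37.5%, 18.8 to 59.4), against 19 of the 200 others (9.50%, 5.82 to 14.4), with an odds ratio of 5.65 (Fisher's exact test, two-sided, interval 1.91 to 16.1, adjusted p = 0.00241). The 9 sites were both of FMT1 and those in GLK1, a glucokinase, SPC25, SCS3, CYR1, the adenylate cyclase, SHR5, WTM2 and HTC1. Elsewhere 24 of 68 Reb1 sites with an Abf1 site that close were in 5 rows (35.3%), against 163 of 650 without (25.1%), which did not pass (Fisher's exact test, odds ratio 1.63, interval 0.917 to 2.84, adjusted p = 0.140). The difference between these odds ratios was not tested. With both lists cut to sites at or above their own median score, 3 sites inside genes had an Abf1 site within 200 bp, 1 of them in 5 rows, and the comparison did not pass (Fisher's exact test, adjusted p = 0.623).

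**Figure D5:**
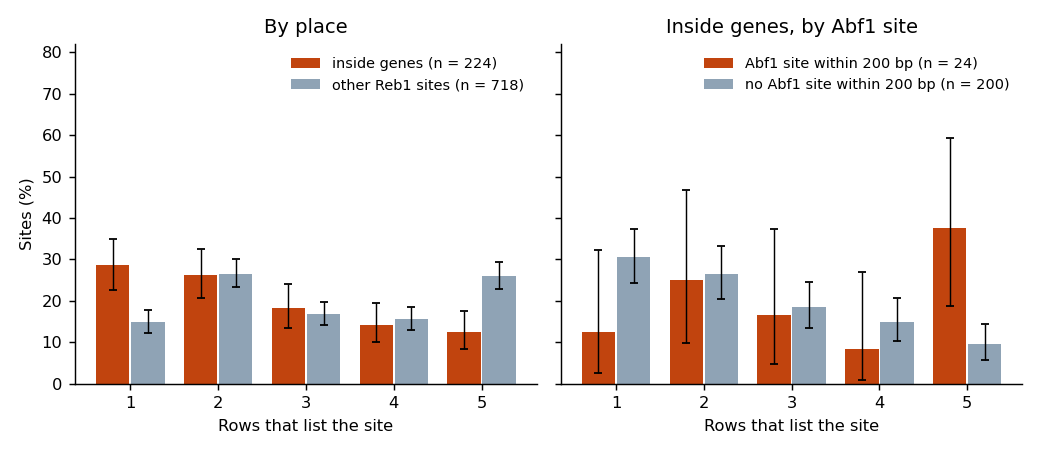
Percent of sites by the number of identical rows that list them, with exact 95% binomial intervals. On the left, 224 Reb1 sites inside genes against 718 other Reb1 sites, with 12.5% and 26.0% in 5 rows; on the right, sites inside genes with an Abf1 site within 200 bp (n = 24) against those without (n = 200), with 37.5% and 9.50% in 5 rows.

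In the 9 genes with 2 sites, the distance between centres ranged from 18 to 909 bp. The closest were in YPL261C, 18 bp apart on opposite strands and each in 2 rows, 207.5 and 225.5 bp ahead of CUB1. In YFL015C they were 28 bp apart on the same strand, each in 4 rows, 234.5 and 262.5 bp ahead of MDJ1, a mitochondrial Hsp40 chaperone. In YLR162W they were 59 bp apart, and in FRA1, a regulator of iron-responsive transcription, 96 bp apart. The pairs in SLM3, in BAT2, a branched-chain amino acid transaminase, in FMT1, in BRR2 and in BDF2, a bromodomain protein, were 315 to 909 bp apart. The motifs of a pair were on the same strand in YFL015C, YLR162W, FRA1, SLM3, BAT2 and BDF2, and on opposite strands in YPL261C, FMT1 and BRR2. Both sites of FMT1 were listed in 5 rows. Of the host genes, 32 of 215 (14.9%) had a further Reb1 site within 500 bp ahead of their own start codon, against 752 of all 6002 protein-coding genes (12.5%).

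Near non-coding genes, which the gene table lists 411 times, there were 8 of the 224 sites within 500 bp. The same share was not computed for other Reb1 sites or for coding base pairs. Whether sites inside genes are near non-coding genes more or less often than those was therefore not tested. The site in GAL10, the galactose epimerase, at chrII:276629-276638 was 81.8% along the gene and 171.5 bp from the nearer end of YNCB0008W, an antisense RNA gene. It had a score of 12.6034 and 3 rows. Reb1 binding in the distal part of GAL10, beside the start of a non-coding transcript, is known from yeast cells. The site in IME4, an RNA methyltransferase of meiosis, lay within RME2, its antisense RNA gene, and the site in YML122C lay within the antisense RNA gene YNCM0001W. Both sites in YLR162W were next to the 5S ribosomal RNA gene RDN5-6, at 118.5 and 177.5 bp. The sites in YGL088W and RKR1 were 138.5 and 285.5 bp from the small nucleolar RNA genes SNR10 and SNR86, and the one in YOR072W-B was 33.5 bp from the tRNA gene SUF11.

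No difference in place between the Reb1 and the Abf1 sites inside genes passed the adjusted test. A neighbouring start codon was within 500 bp of 38 of 224 Reb1 sites (17.0%) and of 100 of 656 Abf1 sites (15.2%), with an odds ratio of 1.14 (Fisher's exact test, interval 0.733 to 1.73, adjusted p = 0.617). In the distal part there were 95 of 224 Reb1 sites and 278 of 656 Abf1 sites, 42.4% each (odds ratio 1.00, interval 0.727 to 1.38). The motif was on the host's strand at 115 of 224 Reb1 sites (51.3%) and 388 of 656 Abf1 sites (59.1%), which passed before adjustment only (Fisher's exact test, p = 0.0425, adjusted p = 0.0832).

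By gene group, the hosts were few and scattered. The groups were written down by gene symbol after the hosts had been seen, so the counts describe them only and no test was made. Sites lay in 4 of 138 genes of cytosolic ribosomal proteins (RPL13B, RPL19A, RPL19B and RPS13), 2 of 71 of mitochondrial ones (MRP35 and MRPL16), and 1 of 34 proteasome genes (PRE1). RPL19A and RPL19B are near-identical copies. Of 158 sequence-specific transcription factors 8 were hosts (5.06%), among them GCR1, an activator of glycolytic genes, RGT1, a repressor of glucose transporters, and SUM1, a repressor of meiotic genes. Of 104 plasma membrane transporters 5 were hosts (4.81%), namely ADY2, HIP1, HOL1, STL1 and TPO5. Of 123 protein kinases PHO85 was the only host, of 56 chromatin remodeler subunits CHD1 was, and of 56 genes of the UTP, NOP, RRP and NOC families of ribosome biogenesis UTP18 was. IMD4 was the only host among 64 genes of the COS, PAU, IMD, HXT, AAD and THI families, which have many subtelomeric members. None of 38 protein phosphatases, 8 Y' helicases and 6 general regulatory factors, REB1 and ABF1 included, held a site. By number of genes, all of these stand beside the 3.58% of protein-coding genes that did. Per Mb of gene length the order differed, with 25.3 sites in all protein-coding genes. Above it were mitochondrial (40.7) and cytosolic (38.8) ribosomal proteins, transcription factors (28.2) and the proteasome (26.5). Below it were transporters (24.6), the group that holds IMD4 (15.4), ribosome biogenesis (10.2), remodelers (9.21), kinases (3.52) and the groups without a site. These densities rest on few sites.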

How the data were processed

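Per the labels' protocols, pulldowns kept fragments of 38 to 90 bp and inputs of 120 to 180 bp. Bowtie, sacCer3 and R64 are named in the submitters' processing notes. The values used were 2 lists of motif sites, deposited by the authors for the series as a whole, with a score for each row that the authors do not define. The labels state no peak caller, motif scanner, threshold or pooling. Identical rows were counted as 1 site with its number of rows.

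Sites were placed by their centre against RefSeq's R64 table of protein-coding genes, with strand read from the systematic name. Gene extents run from start to stop codon, introns included. Coding base pairs therefore include introns, and sites that lie in an intron were not told apart. Positions are as deposited and were read as 1-based with both ends included. Where coding sequences overlapped, the longer gene was the host (1 site). Distances to a host's stop codon end were counted to the position just past its last base.

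Shares were compared with base pair shares by exact binomial tests (26) and between lists by Fisher's exact tests (19), all two-sided, with Benjamini-Hochberg adjustment over each family and a threshold of 0.05. The members, lists and tests were chosen with earlier results of these data known. Tests of frame, short or systematic-name hosts, chromosomes V to IX, the neighbour's direction, rows by Abf1 proximity, score by strand or host name, and rows by place in the gene were added after the data were seen. Named genes were taken by rank of score (ties included), rows, distances, hosts with 2 sites and gene group, except where said. Transposon genes could not be told apart by symbol, so they were not removed: they remain among the coding base pairs and the possible neighbours. The placement and tests were tested on simulated lists. Positions in those lists took no account of sequence, so they do not check the base pair and frame backgrounds for a real motif. Tests ran in scipy 1.17.1 under Python 3.11.15, with pandas 2.3.3, numpy 2.4.6 and, for plots, matplotlib 3.10.9.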

Additional observations from a re-analysis of the deposited data

How the results depend on the processing

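For 12 results, 118 values were computed under 16 other settings, and 101 kept their direction and their side of the threshold. The 101 include results that had not passed and still did not. They also include settings that could change little: moving starts by 1 bp changed no share but that of frames. On chromosomes V to IX alone the share of sites in the distal part of the host was 27.9%, below an even split. There the differences between sites inside genes and other Reb1 sites were -13.3 percentage points for a score at or above the median and -16.3 for 2 rows or more, and the difference in 5 rows by Abf1 proximity was 32.1, none past the test. Only 43 sites are left there, and only 5 of them have an Abf1 site within 200 bp. With both lists cut to sites at or above their median score, the difference in 2 rows or more was -9.17 points and that in 5 rows by Abf1 proximity 19.6, neither past the test. Hosts of at least 600 bp, added after the data were seen, gave 10.2% with a neighbouring start codon, 40.3% in the distal part and a difference of 6.33 points in systematic-name hosts, none past the test; 186 sites are left. With starts moved by 1 bp, 38.6% of sites on the host's strand began at the second base of a codon, since plus-strand hosts then change frame and minus-strand hosts do not. Differences that had not passed changed sign, again without passing, in 7 cases. For an Abf1 site close by, inside genes against other Reb1 sites, they were -1.32 points at or above the median score, -0.575 within 100 bp and -1.86 within 500 bp. For a neighbouring start codon, Reb1 against Abf1, they were -1.07 in hosts with a symbol, -2.77 within 1000 bp and -1.95 in hosts of at least 600 bp. For the score with against without a neighbour it was -1.18 within 1000 bp. No result went past the threshold that had not before.

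No paired analysis was possible because the lists carry no sample. No replicate was left out for the same reason. The median score and the minimum of 2 rows were not tried on the results they define. Removing Y' helicase genes left every member in place. Scores and rows have no stated meaning, the depth behind a site is unknown, and motif matches outside the lists were not analysed.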

Other observations

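Hosts shorter than 600 bp, known only by a systematic name and with no neighbouring protein-coding start codon within 500 bp of their sites were 5 in number: YCR108C, YGL088W, YLL066W-B, YLR162W and YMR105W-A. Their lengths were 192, 366, 171, 357 and 195 bp. The shortest host of all was YOR072W-B with 162 bp, and its site had both a tRNA gene and a protein-coding start codon within 500 bp.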
